A study of Mus musculus with 10 samples.

Results

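AHNAK, the annexins and the S100 proteins meet at the inner face of the plasma membrane, and the 10 genes described here encode members of that group in mpkCCD cells. These are cultured mouse cells that model the principal cell of the renal collecting duct. The genes are Ahnak, Ahnak2, Anxa1, Anxa2, Anxa4, Anxa5, S100a1, S100a6, S100a10 and S100a11, taken by symbol from the 55414 genes of the table. All 10 were among the 20000 genes with the highest mean level, which were the ones tested. They were selected on measured TPM, because Ahnak was higher in every Camk2d KO clone than in every Camk2d-intact sample, with partners and related calcium-binding genes added. The difference of Ahnak between KO and intact cells is therefore a description and carries no test.

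RNA-seq was run on 10 samples, all of cells kept on 0.1 nM dDAVP, a vasopressin analogue selective for the V2 receptor, over 7 days. Complete medium was used for 4 of these days and simple medium for the other 3. The strain background was C57BL/6 in every sample. The intact group has 5 samples but only 3 lines, since intact clone 1 and intact clone 2 gave 2 samples each and the parental line gave 1. Both intact clones come from the same CRISPR-Cas9 procedure as the KO clones, with the kinase still made. The 5 KO samples were 5 single-cell-derived clones made with CRISPR-Cas9 in the gene for the delta isoform of calcium/calmodulin-dependent kinase 2, where the guide targeted exon 8 in KO 1 and KO 2 and exon 9 in KO 3 to KO 5. The guide of each clone comes from the study's supplement and not from the sample labels. No KO clone was sequenced more than once, so differences between clones and between libraries cannot be told apart. Levels are TPM, which correct the reads of a gene for its length and are scaled to 1 fixed total per library, so that genes may be compared with each other while the sequencing depth stays unknown.

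AHNAK is a very large scaffold protein that lies under the plasma membrane. Annexins bind acidic membrane phospholipids in a calcium-dependent manner, and S100 proteins are small EF-hand proteins that usually bind calcium as dimers and dock onto annexins and other targets. Annexin A2 and S100A10 form a heterotetramer that binds AHNAK, and S100A10 is unusual in the family because its EF hands do not bind calcium. In epithelia these proteins take part in membrane traffic, in the cortical actin cytoskeleton and in the resealing of damaged membrane.

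The levels of the 10 genes differed widely in intact cells, with the S100 transcripts at the top and the scaffolds at the bottom. S100a6 was highest at 2709 ± 224 TPM (SD, n = 5), followed by S100a11 at 2220 ± 149 TPM, and the ranges of the pair overlapped. Anxa5 came next at 1487 ± 117 TPM, apart from its neighbours on either side. Anxa1 at 852 ± 139 TPM and Anxa2 at 791 ± 41.8 TPM overlapped, and so did S100a10 at 487 ± 41.3 TPM with S100a1 at 411 ± 21.1 TPM, and S100a1 with Anxa4 at 381 ± 10.7 TPM. Ahnak was well below at 56.6 ± 2.43 TPM, and Ahnak2 was lowest at 1.99 ± 0.755 TPM. Together the 10 genes held 0.896% to 0.981% of all TPM in intact samples. They held 0.768% in KO 1, 0.786% in KO 2, 0.894% in KO 3, 0.891% in KO 4 and 0.993% in KO 5, so the exon 8 clones lay below every other sample.

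**Figure D1:**
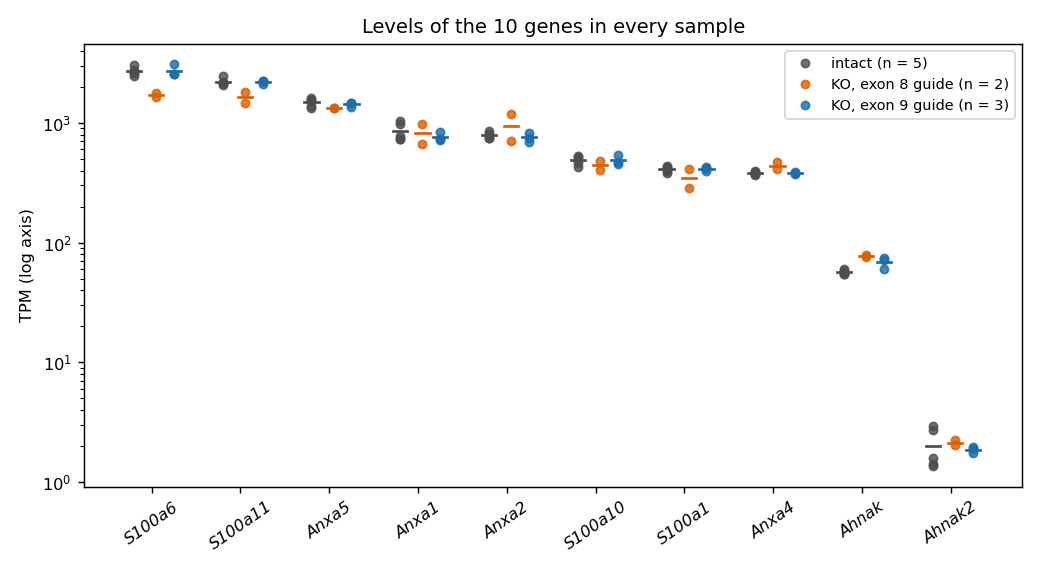
TPM on a log axis for the 10 genes in each of the 10 samples, with a point for each sample and a short line for each group mean (intact, grey, n = 5; exon 8 KO, orange, n = 2; exon 9 KO, blue, n = 3). S100a6 and S100a11 ranged from 1467 to 3107 TPM, Ahnak between 54.4 and 78.9 TPM, and Ahnak2 between 1.34 and 2.93 TPM.

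In the reference annotation of the GRCm38 build (GENCODE M21), the 4 S100 genes lie on chromosome 3. S100a1 is at chr3:90511034-90514392 on the minus strand, S100a6 at chr3:90612882-90624181 on the plus strand, S100a11 at chr3:93520488-93526287 and S100a10 at chr3:93555080-93564643, both on the plus strand. Anxa5 is on the same chromosome, at chr3:36448923-36475894 on the minus strand. Ahnak is at chr19:8989284-9076914 on the plus strand and Anxa1 at chr19:20373428-20390944 on the minus strand. Anxa2 is at chr9:69453620-69491795 on the plus strand, Anxa4 at chr6:86736840-86793584 on the minus strand and Ahnak2 at chr12:112772194-112802657 on the minus strand. The reads were mapped by the authors to a later annotation, so these coordinates are not those of the deposited values.

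Promoters are shown for 4 genes whose levels carry the description, Ahnak for the choice of the genes, S100a6 and S100a11 for the exon 8 clones, and Anxa2 for KO 2. Each run of 300 bases covers 250 bases before to 50 bases after the RefSeq start on GRCm38.p6, 5′ to 3′ on the strand of the gene, and capitals mark matches to the motifs named after the sequences. The windows are chr19:8989034-8989333 for Ahnak, chr3:90612644-90612943 for S100a6, chr3:93520246-93520545 for S100a11 and chr9:69453433-69453732 for Anxa2, all on the plus strand.
Ahnak: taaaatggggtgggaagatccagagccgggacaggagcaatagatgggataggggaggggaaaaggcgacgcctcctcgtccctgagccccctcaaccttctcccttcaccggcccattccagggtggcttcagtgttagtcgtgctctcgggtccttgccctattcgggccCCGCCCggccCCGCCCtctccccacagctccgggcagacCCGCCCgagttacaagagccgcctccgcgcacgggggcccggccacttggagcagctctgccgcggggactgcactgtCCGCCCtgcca
S100a6: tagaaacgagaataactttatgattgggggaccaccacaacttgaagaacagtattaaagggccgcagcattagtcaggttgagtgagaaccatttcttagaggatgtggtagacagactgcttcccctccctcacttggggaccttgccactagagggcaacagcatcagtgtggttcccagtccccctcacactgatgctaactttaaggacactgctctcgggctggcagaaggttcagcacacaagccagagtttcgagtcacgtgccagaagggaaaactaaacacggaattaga
S100a11: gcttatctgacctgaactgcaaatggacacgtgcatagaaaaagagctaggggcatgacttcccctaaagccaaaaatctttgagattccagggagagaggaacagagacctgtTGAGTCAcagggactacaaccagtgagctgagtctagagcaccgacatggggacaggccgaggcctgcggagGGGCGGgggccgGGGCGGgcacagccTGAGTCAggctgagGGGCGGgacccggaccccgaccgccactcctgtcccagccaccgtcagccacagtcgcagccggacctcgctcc
Anxa2: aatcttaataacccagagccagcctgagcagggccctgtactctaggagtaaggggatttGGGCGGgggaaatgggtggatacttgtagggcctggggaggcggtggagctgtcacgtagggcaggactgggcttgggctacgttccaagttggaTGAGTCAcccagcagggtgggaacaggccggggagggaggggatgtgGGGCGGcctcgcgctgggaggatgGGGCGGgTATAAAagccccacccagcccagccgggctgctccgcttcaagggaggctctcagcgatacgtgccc

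The motifs searched on both strands were the CRE TGACGTCA, the AP-1 site TGACTCA or TGAGTCA, the TATA box TATAAA and the GC box GGGCGG, none of which holds another. Among the 32851 RefSeq promoters of this length, 1.79% held the CRE letters, 5.20% the AP-1 letters, 13.6% the TATA letters and 35.7% the GC box letters. The Ahnak window held 4 GC boxes, whose first bases lay at -78, -68, -39 and 40 from the start. The Anxa2 window held an AP-1 match at -95, GC boxes at -190, -48 and -24 and a TATA match at -17. The S100a11 window held AP-1 matches at -136 and -38 and GC boxes at -64, -52 and -24, while the S100a6 window held none of these letters. Of the other promoters in the RefSeq table, Anxa1 had a TATA match at -32 and 1 of the 2 Anxa4 windows a GC box at 7, and Ahnak2, Anxa5 and S100a1 had no match. S100a10 was not matched. These are letters in a window and are not evidence of binding.

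Camk2d itself, the targeted gene, was lower in KO clones by a log2 difference of -2.39 (SE 0.09, limma with Benjamini-Hochberg adjustment, adjusted p = 1.2e-06). It was the only gene of the 20000 that passed an adjusted p of 0.05 in the comparison of KO with intact cells, which is 0.00500% of those tested, and 1398 genes had an unadjusted p under 0.05. The labelled cell type was checked against its markers. The summed level of 9 principal cell markers, led by Aqp2, the vasopressin-regulated water channel, was 4209 to 5959 TPM in intact samples. It was 1762 to 2011 TPM in exon 8 KO clones and 3293 to 4287 TPM in exon 9 KO clones. Most of that sum was Aqp2, at 4318 ± 696 TPM in intact and 2485 ± 1024 TPM in KO samples (SD, n = 5 each). Of the 9 markers, Elf5 and Scnn1b were under 1 TPM in every sample, and Aqp3 and Aqp4 were low, at means of 1.81 and 3.83 TPM in intact and 2.36 and 0.62 TPM in KO samples. Avpr2, the V2 receptor, was at 235 ± 11.2 TPM in intact and 205 ± 56.8 TPM in KO samples. Over the 8 tested, the median log2 difference of KO minus intact was -0.18, with 3 above 0 (Hsd11b2, Aqp3 and Scnn1a), and none passed. All 8 fibroblast and pericyte markers were under 1 TPM in every sample, 3 of them at 0 throughout, with a sum of 0.02 to 0.61 TPM in intact samples and 0.02 to 0.5 TPM in KO clones. Of the other marker lists, 5 of 6 intercalated cell, 5 of 6 proximal tubule and 5 of 7 macrophage markers stayed under 1 TPM in every sample, and the intercalated cell marker above it, Atp6v1b1, had means of 28.0 TPM in intact and 32.2 TPM in KO samples. In bulk RNA, fewer cells that express a gene and less RNA of it in each cell cannot be told apart.

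Ahnak was at 58.2 TPM in the parental line, 54.4 and 55.0 TPM in the samples of intact clone 1 and 55.2 and 60.04 TPM in those of intact clone 2. In the KO clones it was at 75.2 TPM in KO 1, 78.9 TPM in KO 2, 60.4 TPM in KO 3, 73.6 TPM in KO 4 and 71.3 TPM in KO 5. The lowest KO clone and the highest intact sample were thus 60.39 and 60.04 TPM, a gap of 0.35 TPM, and 4 of 5 KO clones stood well above it. The means were 56.6 ± 2.43 TPM in intact and 71.9 ± 6.98 TPM in KO cells (SD, n = 5 each), a ratio of 1.27 and a log2 difference of 0.34 (SE 0.07). Of the 20000 genes, 239 were higher in every KO clone than in every intact sample (1.20%) and 89 were lower (0.445%). That split depended on the scaling, with 153 higher and 119 lower after quantile normalization, 157 and 137 with median ratios and 121 and 177 after centring by transcript length. Ranked among those 239 from the largest down, Ahnak was at 40 by log2 ratio, 58 by mean level and 207 by the gap between the groups.

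The groups were apart for Ahnak on TPM as deposited and overlapped on 3 other scales. The gap of 0.01 on the log2 scale compared with a median gap of 0.03 over the 239 genes. After quantile normalization the gap was -0.04, after rescaling by median ratios -0.03 and after centring within bins of transcript length -0.07, so KO 3 fell below sample 2 of intact clone 2 in each case. The log2 difference of the means was 0.27 to 0.44 over 22 alternatives, in many of which its direction was fixed by the choice of Ahnak. The longest annotated transcript of Ahnak has 18100 bases. Among the 287 genes with a transcript of 10000 bases or more, the median log2 difference of KO minus intact was 0.04 and 189 were above 0, beside a median of 0.02 with 11311 of 19730 above 0 over all genes with a length. With each sample centred within bins of transcript length, the log2 difference of Ahnak was 0.28.

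**Figure D2:**
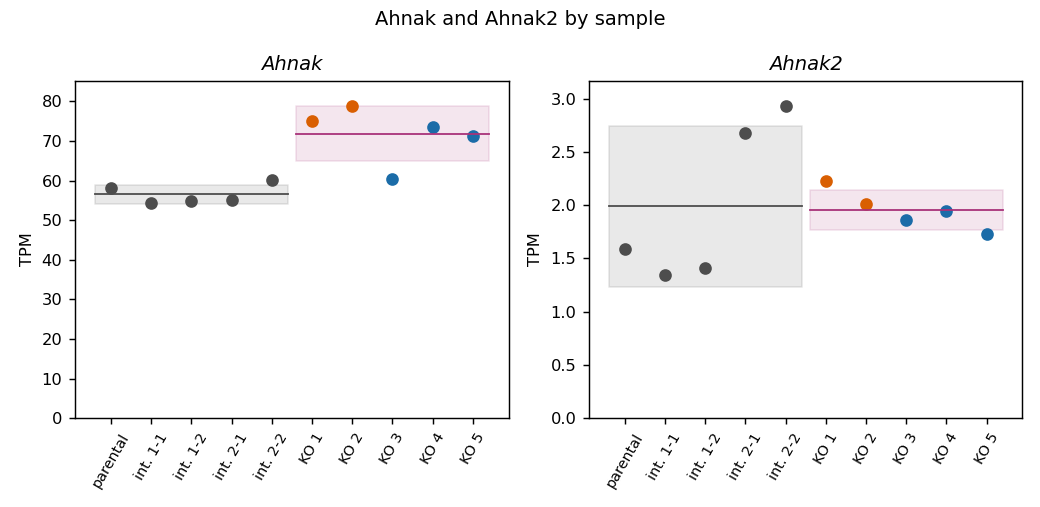
TPM of Ahnak (left) and Ahnak2 (right) in each sample, with grey points for intact, orange for exon 8 KO and blue for exon 9 KO, lines for the mean of the 5 intact and the 5 KO samples and shading for 1 SD. For Ahnak, KO 3 (60.4 TPM) sits level with intact clone 2, sample 2 (60.04 TPM), and for Ahnak2 the intact samples split by clone.

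Ahnak2, the paralogue of Ahnak, varied by intact clone more than by genotype. It was at 1.59 TPM in the parental line, 1.34 and 1.41 TPM in intact clone 1 and 2.68 and 2.93 TPM in intact clone 2. The KO clones, at 2.23, 2.01, 1.86, 1.94 and 1.73 TPM for KO 1 to KO 5, lay between the intact clones. The log2 difference of KO minus intact was 0.02 (SE 0.16, 95% interval -0.34 to 0.37, limma adjusted p = 0.993), and its sign turned under 6 of 21 alternatives. Between intact clone 2 and intact clone 1, the log2 difference was 0.68 (SE 0.09, limma adjusted p = 0.132), which missed the threshold in a fit of 5 samples. At this low level a pseudocount of 1 understates the difference, which was 0.98 with a pseudocount of 0.1 (adjusted p = 0.150). Over all 12 alternatives its adjusted p ran from 0.0709 to 0.333.

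Anxa2 and S100a10, whose products form the tetramer that binds AHNAK, overlapped between intact and KO cells, and KO 2 held the highest value of Anxa2 and the lowest of S100a10. Anxa2 was at 752 TPM in the parental line, 850 and 811 TPM in intact clone 1 and 751 and 794 TPM in intact clone 2. In the KO clones it was at 709.89 TPM in KO 1, 1185 TPM in KO 2, 697 TPM in KO 3, 742 TPM in KO 4 and 832 TPM in KO 5. KO 2 alone was outside the intact range on the high side, while KO 1, KO 3 and KO 4 were below the lowest intact sample. The log2 difference of KO minus intact was 0.05 (SE 0.13, 95% interval -0.25 to 0.34, limma adjusted p = 0.957). Without KO 2 it was -0.09 (adjusted p = 0.789, with 0.662 to 1.00 over all alternatives).

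S100a10 was at 431 TPM in the parental line, 521 and 463 TPM in intact clone 1 and 491 and 531 TPM in intact clone 2. The KO clones were at 484, 401, 475, 455 and 544 TPM for KO 1 to KO 5, and the groups overlapped. KO minus intact was -0.05 on the log2 scale (SE 0.08, 95% interval -0.24 to 0.14, limma adjusted p = 0.917). The ratio of Anxa2 to S100a10 was 1.63 ± 0.119 (SD, n = 5) in intact cells, with a range of 1.495 to 1.75. It was 1.47 in KO 1, 2.95 in KO 2, 1.47 in KO 3, 1.63 in KO 4 and 1.53 in KO 5. KO 2 thus had the highest Anxa2 and the lowest S100a10 of all 10 samples, and the mean over the other 4 KO clones was 1.52 ± 0.0778.

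The other annexins among the 10 overlapped between KO and intact cells, and none passed the threshold. Anxa1, a target of glucocorticoids that is known for restraining inflammation, ranged from 741 to 1030 TPM in intact samples and from 671 to 981 TPM in KO clones (log2 difference -0.11, SE 0.13, 95% interval -0.39 to 0.17, limma adjusted p = 0.866, and -0.19 to -0.04 when a sample was left out). Anxa5, whose product is widely used as a probe for exposed phosphatidylserine, ranged from 1341 to 1628 TPM in intact samples and from 1326 to 1472 TPM in KO clones (-0.10, SE 0.07, 95% interval -0.25 to 0.06, adjusted p = 0.808). Anxa4, abundant in epithelia, ranged from 367 to 395 TPM in intact samples and from 378 to 471 TPM in KO clones (0.08, SE 0.06, 95% interval -0.05 to 0.22, adjusted p = 0.820). The value of Anxa4 was 0.20 with the exon 8 clones alone, 0.0015 with the exon 9 clones alone and 0.03 without KO 2. In Anxa1 the spread followed the intact clones, at 1030 and 972 TPM in intact clone 1 against 741 and 776 TPM in intact clone 2. That log2 difference of clone 2 minus clone 1 was -0.40 (SE 0.05, limma adjusted p = 0.120).

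S100a6, also called calcyclin, was at 2454 TPM in the parental line, 2772 and 2668 TPM in intact clone 1 and 2598 and 3052 TPM in intact clone 2. It was at 1770 TPM in KO 1 and 1662 TPM in KO 2, below all other samples, and at 2554, 2570 and 3107 TPM in KO 3, KO 4 and KO 5. The log2 difference of KO minus intact was -0.25 (SE 0.17, 95% interval -0.62 to 0.11, limma adjusted p = 0.780). With the exon 9 clones alone against intact it was 0.02 and with the exon 8 clones alone -0.65, and the adjusted p ran from 0.0964 to 1.00 over all alternatives.

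S100a11, which pairs with annexin A1, was at 2163 TPM in the parental line, 2096 and 2143 TPM in intact clone 1 and 2222 and 2475 TPM in intact clone 2. It was at 1814 TPM in KO 1 and 1467 TPM in KO 2, again below all other samples, and at 2245, 2111 and 2262 TPM in KO 3, KO 4 and KO 5. KO minus intact was a log2 difference of -0.18 (SE 0.12, 95% interval -0.45 to 0.08, limma adjusted p = 0.782). It was -0.44 with the exon 8 clones alone, -0.0070 with the exon 9 clones alone and -0.08 without KO 2. Of the 50-base windows in S100a11 transcripts, 41.1% also occur in the gene model Gm12854, listed at 6.12 to 15.8 TPM, so the split of reads between them is uncertain. S100a1, best known from striated muscle, ranged from 384 to 437 TPM in intact samples and was at 283 TPM in KO 2 and from 398 to 430 TPM in the other KO clones (log2 difference -0.10, SE 0.11, 95% interval -0.33 to 0.14, limma adjusted p = 0.854).

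None of the 9 genes other than Ahnak passed the threshold between KO and intact cells, beside 0.00500% of all genes tested. The median log2 difference over the 10 genes, Ahnak included, was -0.07, against a median of 0.02 over all 20000. Of the 10 genes, 4 were above 0, and the sign of Ahnak was fixed by the choice of the genes. Over all genes with a length, 11311 of 19730 were above 0. Apart from Ahnak, none was without overlap between the groups, beside 1.64% of all genes in either direction. A p above the threshold does not show that a gene is unaltered.

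For each of the 4 S100 genes, the log2 difference between the guides was larger in size than that between KO and intact cells. The same held for Ahnak2, Anxa2, Anxa4 and Anxa5, and not for Ahnak or Anxa1. Over all 20000 genes the guide comparison was also wider, with an SD of the log2 differences of 0.33, beside 0.21 for KO minus intact. These differences were not tested against each other. In the comparison of exon 9 with exon 8 clones, 62 genes passed (0.310% of 20000, 31 in each direction), and none of the 10 genes was among them. S100a6 came nearest, at a mean of 1716 ± 76.3 TPM in exon 8 clones (SD, n = 2) and 2744 ± 314 TPM in exon 9 clones (SD, n = 3), a ratio of 1.60. Its log2 difference of exon 9 minus exon 8 was 0.67 (SE 0.12, 95% interval 0.41 to 0.94, limma adjusted p = 0.0621). Over 20 alternatives the adjusted p ran from 0.0228 to 0.152 and was under 0.05 in 3 of them. S100a11 was at 1640 ± 245 TPM and 2206 ± 82.8 TPM (log2 difference 0.43, SE 0.11, limma adjusted p = 0.166). S100a1 differed by 0.29 (SE 0.13, adjusted p = 0.412) and S100a10 by 0.15 (SE 0.12, adjusted p = 0.653).

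The summed level of the 4 S100 genes was 4477 TPM in KO 1 and 3814 TPM in KO 2, and between 5484 and 6443 TPM in the other 8 samples. In S100a6, S100a11 and Anxa5 all exon 9 clones were above both exon 8 clones (3 of 10 genes, beside 8.99% of all genes tested), and the reverse held for Ahnak, Ahnak2 and Anxa4 (3 of 10, beside 13.4%). In the same S100a6, S100a11 and Anxa5, both exon 8 clones were below all 8 other samples (3 of 10 genes, beside 3.51% of all genes tested). Anxa4 had both exon 8 clones above all 8 others, beside 6.10% of all genes tested. Ahnak did too, but its place above the intact samples was fixed by the choice of the genes. For Ahnak the exon 8 mean was 77.0 ± 2.60 TPM and the exon 9 mean 68.4 ± 7.03 TPM, a log2 difference of -0.17 (SE 0.08, 95% interval -0.36 to 0.02, limma adjusted p = 0.458, and -0.23 to -0.09 when a sample was left out). That of Anxa4 was -0.20 (SE 0.06, adjusted p = 0.282), of Anxa2 -0.28 (SE 0.18, adjusted p = 0.573), of Ahnak2 -0.13 (SE 0.24, adjusted p = 0.875), of Anxa1 -0.09 (SE 0.19, adjusted p = 0.901) and of Anxa5 0.10 (SE 0.09, adjusted p = 0.708).

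KO 1 and KO 2 were not alike in this comparison. Without KO 1 the exon 8 guide is represented by KO 2 alone, and without KO 2 by KO 1 alone, so only log2 differences are given. Without KO 1 they were -0.65 for Anxa2, -0.30 for Anxa4, 0.72 for S100a6, 0.59 for S100a11 and 0.55 for S100a1. Without KO 2 instead, they were 0.09 for Anxa2, -0.10 for Anxa4, 0.63 for S100a6, 0.28 for S100a11 and 0.02 for S100a1. S100a6 was therefore low in both exon 8 clones, whereas the values of Anxa2, S100a1 and S100a10 rest on KO 2, S100a10 being at 0.016 without it.

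Other values moved with the same split of clones. The summed level of the principal cell markers was lower in the exon 8 clones, as given above, which followed Aqp2 (log2 difference of exon 9 minus exon 8 1.13, limma adjusted p = 0.0513). Over the 8 markers tested, the median of that difference was -0.10 and 3 were above 0, among them Avpr2 at 0.68 (adjusted p = 0.181). The macrophage markers summed to 18.3 to 30.3 TPM in exon 8 clones and 14.9 to 17.7 TPM in exon 9 clones, beside 15.0 to 21.9 TPM in intact samples. All 3 tested (Ptprc, Csf1r and Cd68) were lower in exon 9 clones (median -0.35) and none passed. Of the same list, Adgre1, C1qa and C1qb were at 0 in every sample. The S100 genes have short transcripts, the longest of each with 511 to 783 bases. Among the 167 genes with a longest transcript under 800 bases and a mean of at least 50 TPM, the median log2 difference of exon 9 minus exon 8 was 0.15, and 76.0% were above 0. Over all 4575 genes at that level, the median was -0.02 and 45.7% were above 0. With each sample centred within 20 bins of transcript length, the difference of S100a6 was 0.71 (limma adjusted p = 0.0566) and that of S100a11 was 0.33. The bin medians came from all tested genes with a length, down to a mean of 0.049 TPM. The centring therefore need not remove the shift of the 167 genes. The part of transcript length and of the marker levels in these differences was not tested.

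**Figure D3:**
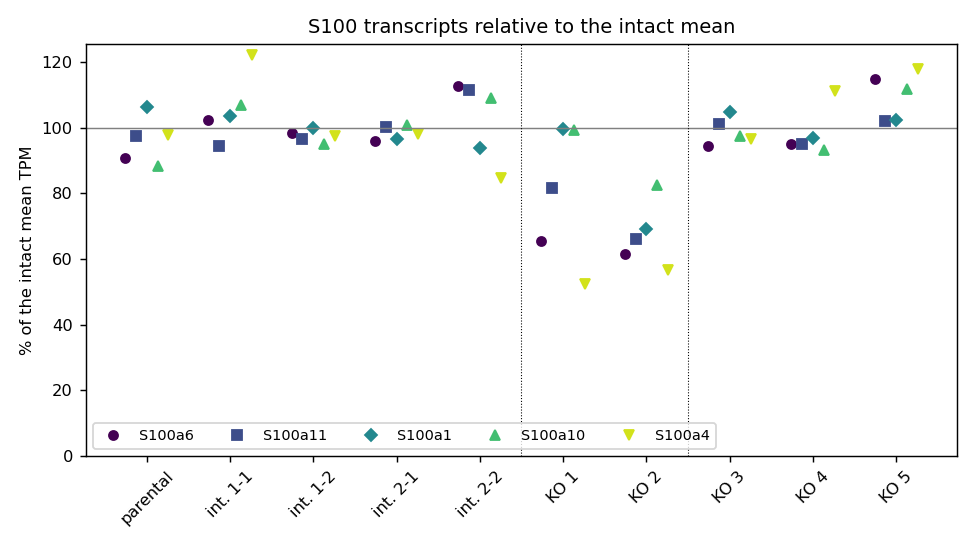
TPM of S100a6, S100a11, S100a1, S100a10 and S100a4 in each sample as a percentage of the mean of the 5 intact samples, with dotted lines between intact samples, exon 8 KO clones (KO 1 and KO 2) and exon 9 KO clones (KO 3 to KO 5). S100a6, S100a11 and S100a4 lie lowest in the exon 8 clones, and S100a1 and S100a10 are lowest in KO 2.

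Between the intact clones, the 10 genes differed by -0.40 to 0.68 on the log2 scale and none passed the threshold. No gene of the 20000 passed (0.00%), although 3394 had an unadjusted p under 0.05 in limma, and 11 passed without an intensity trend and 249 when only genes with a mean of at least 1 TPM were tested. This comparison rests on 2 samples of each clone and describes those lines only. Anxa5 was lower in intact clone 2 by a log2 difference of -0.20 (SE 0.05, adjusted p = 0.232). Ahnak differed by 0.07 (SE 0.05, 95% interval -0.09 to 0.24, adjusted p = 0.587), and by 0.01 to 0.13 when a sample was left out. The differences of Ahnak2 and Anxa1 between intact clones, given above, were larger in size than those between KO and intact cells, and the pair of differences was not tested against each other.

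**Figure D4:**
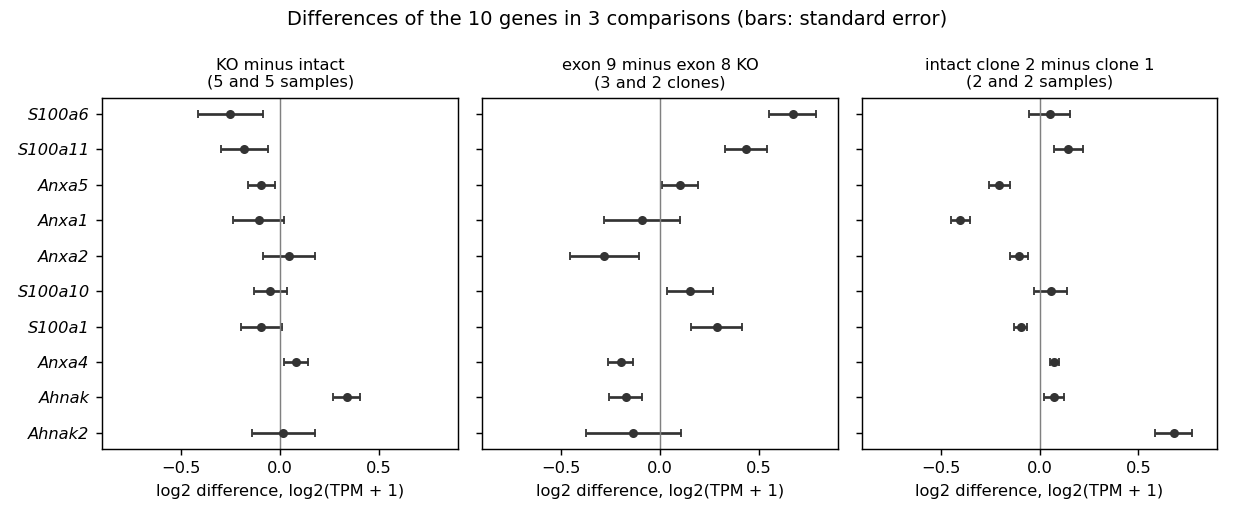
Log2 difference of the 10 genes, on the log2(TPM + 1) scale, for KO minus intact, exon 9 minus exon 8 KO clones and intact clone 2 minus clone 1, with bars for the standard error from limma. S100a6 (0.67) and S100a11 (0.43) are farthest to the right in the middle panel, and Ahnak2 (0.68) and Anxa1 (-0.40) are farthest from 0 in the right panel.

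Of the annexins outside the 10, none passed between KO and intact cells (0 of 6 tested of 8 listed, median log2 difference 0.09). Anxa11, which binds S100A6 and carries RNA granules on lysosomes, was the only one of the tested annexins without overlap, beside 1.20% of all genes in that direction. It was at 140 TPM in the parental line, 137 and 138 TPM in intact clone 1 and 133 and 145.5 TPM in intact clone 2, and at 199, 169, 178, 163 and 166 TPM in KO 1 to KO 5. KO minus intact was 0.33 on the log2 scale (SE 0.06, limma adjusted p = 0.245, with 0.110 to 0.998 over its alternatives). Anxa3 (0.14, SE 0.15), Anxa6 (0.05, SE 0.04) and Anxa9 (-0.33, SE 0.28) had limma adjusted p of 0.854, 0.820 and 0.820. Anxa9 was at -0.04 without KO 2, and Anxa3 ran from 0.05 to 0.24 when a sample was left out.

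Of the other S100 genes, 9 of 12 were tested and none passed between KO and intact cells. The median log2 difference was -0.20 and 1 of 9 was above 0, beside 11311 of 19730 genes with a length. S100a5, S100a7a and S100z had intact means under 1 TPM. The 167 genes with short transcripts described above had a median log2 difference of KO minus intact of -0.10, beside 0.02 over all 4575 genes at that level. S100a16 was at 473 to 488 TPM in intact samples and 325 to 465 TPM in KO clones (-0.20, SE 0.09, limma adjusted p = 0.711, and -0.23 to -0.10 when a sample was left out). S100a14 was at 81.3 to 96.0 TPM and 52.9 to 79.96 TPM (-0.39, SE 0.10, adjusted p = 0.524). Both were lower in every KO clone than in every intact sample, beside 0.445% of all genes tested in that direction. S100a13 differed by -0.16 (SE 0.15, adjusted p = 0.828).

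S100a4, an S100 gene linked to cell motility, was the only one of these 9 tested genes to pass in the comparison of the guides, beside 0.310% of all genes tested. It was at 24.1 TPM in KO 1 and 26.1 TPM in KO 2, and at 44.6, 51.2 and 54.3 TPM in KO 3 to KO 5. The intact samples ran from 39.1 to 56.2 TPM. Both exon 8 clones were thus below all 8 other samples, beside 3.51% of all genes tested. The log2 difference of exon 9 minus exon 8 was 0.96 (SE 0.13, limma adjusted p = 0.0313). It passed in 13 of 20 alternatives, with adjusted p between 0.0171 and 0.111. It did not pass without intact replicate 3 (0.0667) or 4 (0.0687), or without KO 3 (0.0562), KO 4 (0.0858) or KO 5 (0.111), nor with 1 value per cell line (0.0550) or a random effect for the line (0.0573). For all KO clones together, S100a4 was at -0.27 against intact (adjusted p = 0.820).

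Genes of plasma membrane repair, a process in which AHNAK and annexins take part, showed no call either (0 of 15 tested of 17 listed, median log2 difference 0.05, 9 above 0). Capn1 and Capns1, the catalytic and the small subunit of calpain 1, differed by 0.08 (SE 0.12, limma adjusted p = 0.908) and 0.12 (SE 0.05, adjusted p = 0.708). Among the partners of the annexin A2/S100A10 tetramer and of AHNAK, 0 of 13 tested of 18 listed passed between KO and intact (median 0.08, 8 above 0). Ctsb, a lysosomal protease that binds the tetramer at the cell surface, differed by 0.08 (SE 0.06, adjusted p = 0.811).

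Cacnb3, a beta subunit of voltage-gated calcium channels of the family that AHNAK binds, was named because it passed between the guides. It was the only one of the 13 tested partners to do so, beside 0.310% of all genes tested. It was at 52.5 TPM in KO 1 and 62.1 TPM in KO 2, at 37.6, 40.9 and 41.5 TPM in KO 3 to KO 5 and from 37.6 to 41.6 TPM in the intact samples. The exon 8 clones were above all 8 other samples, beside 6.10% of all genes tested. Exon 9 clones were lower, by a log2 difference of -0.50 (SE 0.08, limma adjusted p = 0.0471). It passed in 8 of 20 alternatives, with adjusted p between 0.00321 and 0.145. It did not pass when any of the 5 intact samples was left out (0.0764 to 0.0957) or without KO 3 (0.145), KO 4 (0.101) or KO 5 (0.119). It also missed the threshold with 1 value per cell line (0.125), a random effect for the line (0.0788), no intensity trend (0.0774) or all genes above 0 (0.0504).

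Across the 10 samples, with the mean of each group subtracted, the genes most like Ahnak on the log2(TPM + 1) scale were Pank1 (r = 0.93), Fyttd1 (r = 0.93), Afap1l2 (r = 0.93), Sec23ip (r = 0.92) and Pigc (r = 0.90), out of 9252 genes with a mean of at least 10 TPM. The samples share cell lines and are not independent, so these are descriptions with no test. None of the 10 genes was among them. Afap1l2 ran from 21.3 to 23.2 TPM in intact samples and from 17.0 to 25.6 TPM in KO clones, and Pank1 from 15.4 to 18.1 TPM and from 14.5 to 21.6 TPM.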

How the data were processed

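RNA-seq of 10 mpkCCD samples was used. TPM for each Ensembl gene were deposited by the authors, who used STAR, the annotation of Ensembl release 106 and RSEM 1.3.1 on 50-bp paired reads of full-length cDNA amplified from 50 ng RNA. The authors ran edgeR on expected counts, which were not used here. All 10 sample columns were used and 0 columns were left unused. Depth is unknown from TPM, so no counting interval is given.

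The 20000 genes with the highest mean TPM (lowest 0.049) were transformed as log2(TPM + 1) and tested in R 4.3.3 with limma 3.58.1 (lmFit, eBayes with an intensity trend). Benjamini-Hochberg adjustment ran over all 20000, with a threshold of 0.05. The KO and intact groups (5 and 5 samples) had a fit of their own. The guides were compared in a model of 3 groups over all 10 samples, and the intact clones in a model of 3 lines over the 5 intact samples. Where nothing states that samples of an intact clone were separate cultures, p-values measure the spread between these samples, which may be technical. The procedure was tested on simulated data.

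The genes and lists were chosen with earlier results of these data known. Named are the 10 genes, up to 4 genes per list by mean TPM, any listed gene past a threshold, and the 5 genes most like Ahnak by r. Gm12854 was named for its shared sequence. Positions and transcript lengths come from GENCODE M21 and promoters from RefSeq GRCm38.p6, where 9 of the 10 genes matched, while the authors' annotation belongs to a later build. The M21 entry for Ahnak2 was matched by symbol. Alternatives covered the pseudocount, the gene filter, scaling, length, the trend, the cell line (duplicateCorrelation with statmod 1.5.0, consensus correlation 0.606 for KO and 0.553 for the guides), 1 guide alone and leaving out each sample. Length centring of the guide comparison was added after seeing the data. Tables and plots used Python 3.11.15, pandas 2.3.3, numpy 2.4.6 and matplotlib 3.10.9.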

Additional observations from a re-analysis of the deposited data

Results flagged for a closer look

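Each of 12 quantities (the 10 genes and 2 ratios) was examined for a lone sample within the intact and within the KO group, 24 groups in all, where chance alone sets apart about 1 in 20. KO 2 stood apart in 3 of them, which are not separate, since the ratio contains Anxa2. Anxa2 was at 1185 TPM in KO 2, far above the other KO clones. S100a1 was at 283 TPM in the same clone, far below the others, and the Anxa2/S100a10 ratio was 2.95.

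Among the listed genes, the guides differed for 2 by the test of the difference itself, beside 62 of all 20000 genes (0.310%). Neither call was stable, as S100a4 passed in 13 and Cacnb3 in 8 of 20 alternatives. S100a4 was higher in exon 9 than in exon 8 clones by a log2 difference of 0.96 (limma adjusted p = 0.0313), and Cacnb3 was lower by a log2 difference of -0.50 (limma adjusted p = 0.0471). Ahnak2 had both exon 8 clones above and all exon 9 clones below the intact mean, with a log2 difference of exon 9 minus exon 8 of -0.13. For Ahnak2 that difference did not pass (limma adjusted p = 0.875), and no cause was tested for any of these.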

How the results depend on the processing

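Camk2d passed with the same direction under all 22 alternatives. Between KO and intact the count of 1 gene became 2 with a pseudocount of 0.1 and 50 with the exon 8 clones alone, and was 1 to 2 when a sample was left out. Between the guides, 62 became 6 when each line gave 1 value and 36 when line was a random effect, and ran from 21 to 1730 when a sample was left out. Between intact clones, 0 became 249 with a mean of at least 1 TPM and 11 without a trend, and stayed 0 when a sample was left out. Genes without overlap were 328, and 3167 for the exon 8 clones alone, 1108 for the exon 9 clones alone and 693 with 1 value per cell line, which compare fewer samples or values, and 433 to 658 when a sample was left out.

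The sign of small log2 differences turned in several cases. With the exon 9 clones alone against intact, Ahnak2 was at -0.038, Anxa2 at -0.066, S100a6 at 0.016, S100a10 at 0.011, S100a1 at 0.019, S100a4 at 0.12 and S100a13 at 0.0033. With the exon 8 clones alone Capn1 was at -0.0017, and with median ratios Ahnak2 was at -0.0041. When samples were left out, KO minus intact ran from -0.064 to 0.12 for Ahnak2, -0.088 to 0.10 for Anxa2, -0.10 to 0.0071 for S100a10, -0.14 to 0.013 for S100a1, -0.21 to 0.00051 for S100a13 and -0.0032 to 0.20 for Capn1. Exon 9 minus exon 8 ran from -0.36 to 0.18 for Anxa1 and -0.65 to 0.089 for Anxa2. Intact clone 2 minus clone 1 was -0.093 for S100a6 with quantile normalization, and ran from -0.066 to 0.17 for S100a6 and from -0.027 to 0.14 for S100a10 when a sample was left out. The cause was not tested. No paired analysis was possible because the numbers of KO and intact samples are clone names or accession order and pair nothing.

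Precision is limited by 5 samples per group, by intact samples that stand for 3 lines, by guides with 2 and 3 clones, and by TPM without depth.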
